A study of Caenorhabditis elegans with 5 samples.

Results

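Narrow binding regions of the transcription factor PHA-4 that lay close to one another on a chromosome were examined in L2 larvae of *Caenorhabditis elegans*. A narrow region was a region of the combined peak list at least 100 bp and under 1000 bp wide. Neighbouring narrow regions were joined into a chain when the next one started at most 2000 bp after the previous one ended, and regions in chains of 3 or more are called clustered here. Of the 7745 combined regions, 6846 were narrow and 1326 were clustered, which is 17.1% of the list and 19.4% of the narrow regions. They formed 374 chains. The comparison group was the 3832 narrow regions that stood alone, called isolated, and a further 1688 stood in pairs. The members were selected on measured values, the widths and positions of the combined regions, so their number, width, spacing and position are descriptions and carry no test.

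PHA-4 is the worm member of the FoxA family of forkhead transcription factors. It is needed to specify the cells of the pharynx, acts throughout the development of that organ and is also active in the gut and other tissues. FoxA factors bind short DNA motifs and are known for reaching sites in compacted chromatin, and the regulatory DNA of a gene often holds several sites of one factor near each other.

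The study used chromatin immunoprecipitation followed by sequencing (ChIP-seq) in hermaphrodites of strain OP37. This strain has the allele unc-119(ed3) on chromosome III and the transgene wgIs37, made by particle bombardment, in which unc-119(+) is linked to a pha-4 copy with TY1, EGFP and 3xFLAG tags; its listed genotype has no change at the pha-4 locus itself. All 5 libraries share this genotype, the growth temperature of 20 °C and fixation in 2% formaldehyde, and each was made from whole worms harvested in bulk: 1 immunoprecipitation with a goat antibody to GFP is labelled replicate 1, 2 from separate extractions are labelled replicate 2, and 2 input DNA libraries are labelled replicate 1. The labels do not state that the replicates came from separate cultures, so agreement between their lists may be technical. The antibody recognises the tag, so the regions are those of the tagged protein summed over all cells of the worm, and binding in few cells cannot be told apart from weak binding in many.

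The authors deposited 3 lists of regions called with PeakSeq, with coordinates on WormBase WS190: replicate 1 with 4077 regions, replicate 2 with 5335 and the combined list. Each region has a PeakSeq q-value, the authors' own value for the evidence of enrichment over a control, and a score is written here as −log10 of that q. The lists hold no read counts, so the sequencing depth is unknown. A combined region is said to be present in a replicate when at least 1 base overlapped a region of that replicate's list. Genes and sequences at the positions given were not analysed here, because no annotation of WS190 was used. All intervals are 95% intervals that cover counting error only and treat regions as independent, which neighbours in 1 chain are not. Where the intervals of 2 shares overlap, this does not show that the shares are equal.

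Most chains were short. Chains of 3 regions numbered 241 and held 723 of the clustered regions, 89 chains had 4 regions, 26 had 5 and 12 had 6. Chains of 7 and of 8 regions numbered 3 each. From the first to the last base a chain spanned 1684 to 10715 bp, with a median of 3538 bp and quartiles of 2844.5 and 4578.5 bp. The regions themselves covered 39.4% of the span at the median, with a range of 18.9% to 73.3%, so that in the median chain most of the span lay between regions.

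The members of a chain differed widely in score. The difference between the strongest and the weakest member had a median of 10.3 score units over the 374 chains and ranged from 0.151 to 111.6. Over the strongest members the median q was 4.19e-15 and the median width 504 bp, whereas over the weakest members these were 0.000864 and 299 bp. The strongest member had no fixed place: in the 241 chains of 3 it was the first region in 76, the middle one in 78 and the last in 87.

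The chain with the widest span lay on chromosome IV at chrIV:4017949-4028663 and had 8 members, covering 41.1% of 10715 bp. Its strongest member was member 6 counted from the left, a region of 978 bp with a combined q of 4.65e-31, which was present in replicate 1 (q 6.80e-21) and in replicate 2 (q 2.52e-12). Members 3 and 4, 687 and 695 bp wide with combined q-values of 2.79e-12 and 1.18e-09, were also present in both replicates. So were member 7 (572 bp, q 4.94e-07) and member 8 (554 bp, q 6.70e-13). The remaining 3 members were weaker. Members 1 (q 0.00316) and 5 (q 6.85e-06) were present in replicate 1 only, with q-values of 0.000853 and 7.60e-05 there. Member 2, 185 bp wide with a q of 0.00565, was in neither replicate list. In this chain 7 of 8 members were therefore present in replicate 1 and 5 in replicate 2.

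The other chains of 8 lay on chromosome I. In the chain at chrI:12544514-12554623, which spanned 10110 bp, the 3 strongest regions were members 1, 3 and 6, with combined q-values of 3.22e-23, 7.12e-34 and 8.55e-53 and widths of 821, 779 and 689 bp, and each was present in both replicates. Members 2 and 7 (q 1.78e-06 and 0.000293) were present in replicate 1 only, members 4 and 8 (q 5.26e-05 and 1.66e-06) in replicate 2 only, and member 5, a region of 190 bp with a q of 0.00891, in neither. In the chain at chrI:9850632-9858235 the 3 regions present in both replicates had combined q-values of 7.15e-16, 5.80e-43 and 9.92e-22. The last 3 members of that chain, 226 to 331 bp wide with q-values from 0.000241 to 0.00314, were in neither list. Each chain of 8 thus held some strong members found in both replicates and at least 1 weak member found in neither.

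The chain with the lowest q of any clustered region lay on chromosome IV at chrIV:5604338-5607823. Member 1 was 707 bp wide with a combined q of 1.72e-114, the region at place 9 of the combined list, and had q-values of 6.14e-68 in replicate 1 and 3.82e-57 in replicate 2. Member 2, 274 bp wide and 257 bp further on, had a combined q of 0.00706 and was absent from replicate 2. In replicate 1 it lay under the same region as member 1, so its presence there is not a separate call. Member 3 was 564 bp wide and had a combined q of 2.23e-20, with 3.52e-12 in replicate 1 and 7.79e-08 in replicate 2. This chain had the widest range of score, 111.6 units between neighbours of the same chain.

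The chains at the next lowest q-values showed different patterns of presence. At chrX:16127203-16133092 member 4 of 5 was 826 bp wide with a combined q of 4.74e-84 and was present in both replicates (q 1.02e-43 and 1.73e-42). The other 4 members had combined q-values between 7.08e-06 and 0.000603, and all 4 were present in replicate 2 and absent from replicate 1. At chrI:7286454-7291132 all 4 members were present in both replicates, with combined q-values of 2.87e-12, 6.89e-80, 4.54e-14 and 3.08e-26. At chrIII:1920877-1926894 all 4 members were present in replicate 1 and 3 of them in replicate 2. The exception was member 2, 499 bp wide, with a q of 4.75e-13 in replicate 1 and no replicate 2 region. At chrI:4171938-4178915 the first and last members (combined q 8.18e-73 and 2.29e-25) were in both replicates, while member 2, although 988 bp wide with a q of 1.34e-07, was in neither.

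**Figure D1:**
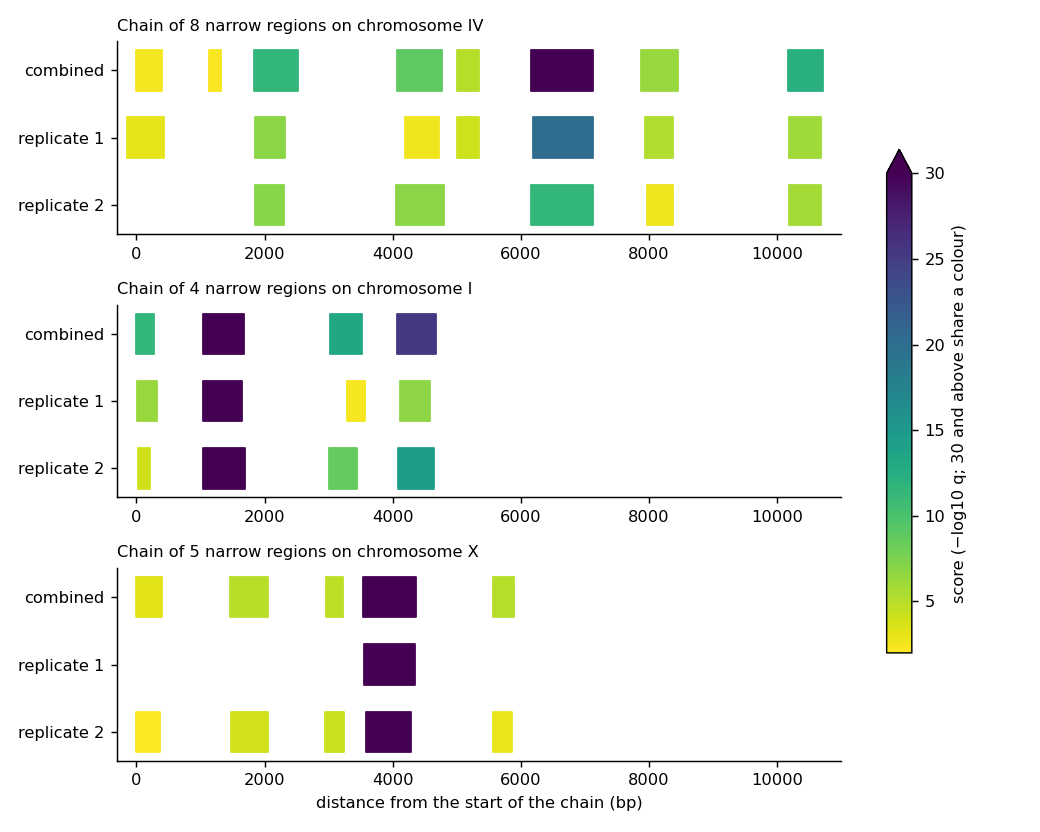
Regions of 3 chains in the combined, replicate 1 and replicate 2 lists, placed by distance from the start of the chain in bp; bars are to scale and coloured by score (−log10 of the deposited q), and scores of 30 and above share a colour. The upper chain on IV has 8 combined members of which 5 are in both replicates, the middle chain on I has 4 of 4 in both, and the lower chain on X has 5 members in replicate 2 and 1 in replicate 1.

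Among the chains of 6 and 7, presence again varied with the replicate. On chromosome V at chrV:11603929-11610826 all 7 members were present in replicate 1 and 4 in replicate 2, whereas at chrV:20407000-20414630 the numbers were 4 of 7 in replicate 1 and 6 of 7 in replicate 2. At chrI:6118004-6124751 they were 2 and 4 of 7. On chromosome II at chrII:5320063-5326623, 5 of 6 members were present in replicate 1 and 6 of 6 in replicate 2. Other chains on chromosome I had many members in neither list. At chrI:14897273-14903178 these were 4 of 6 members, and at chrI:4008135-4014079 and chrI:6577029-6582934, 3 of 6. In the chain at chrI:6577029-6582934 the 3 absent regions came first in a row, with q-values from 0.000298 to 0.00292, and the 3 present ones followed, with q-values from 6.27e-12 to 4.46e-24. The chain with the smallest median gap, 240 bp, lay at chrV:8947901-8951317. Of its 4 members, which covered 72.9% of the span, only the last (940 bp, q 1.08e-10) was in both replicates.

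Within the chains the spacing leaned towards short gaps. The 952 gaps between neighbouring members ran from 201 to 1998 bp with a median of 821 bp and quartiles of 492.25 and 1304.75 bp; 25.7% were at most 500 bp, 60.6% at most 1000 bp and 84.1% at most 1500 bp. The distance between the midpoints of neighbours had a median of 1254.75 bp. Over all narrow regions the median gap was 6703.5 bp. No gap above 2000 bp can lie within a chain, so the smaller median there was fixed by the rule. The lower end was sharp: the combined list and replicate 2 each had a smallest gap of 201 bp and replicate 1 of 202 bp, and the sources used here do not say what set that limit. Over all narrow neighbours the number of gaps fell from 301 between 401 and 600 bp to 127 between 1801 and 2000 bp, and 123 lay in the next 200 bp.

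**Figure D2:**
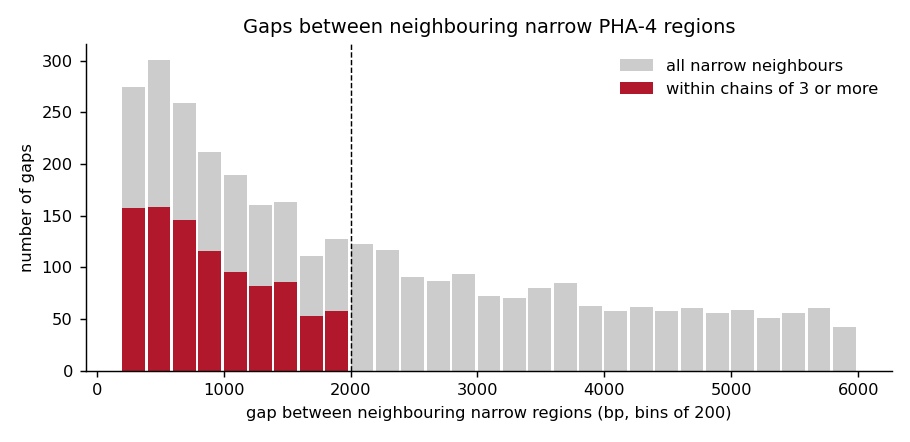
Number of gaps between neighbouring narrow combined regions in bins of 200 bp; grey bars are all narrow neighbours and red bars the 952 gaps within chains of 3 or more, and the dashed line marks the limit of 2000 bp. Gaps start at 201 bp, are most numerous between 401 and 600 bp (301 of all narrow neighbours) and show no break at the limit, with 127 gaps just below it and 123 just above.

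The limits of the rule did not fall at a clear break in the counts. Between 1901 and 2000 bp there were 72 gaps and between 2001 and 2100 bp there were 57; the nearest gaps inside were 1996, 1997 and 1998 bp and those outside 2004, 2005 and 2010 bp. At the lower width limit, 86 combined regions were 100 to 119 bp wide and 78 were 80 to 99 bp. At the upper limit, 52 were 950 bp or wider within the limit and 39 were 1000 to 1049 bp. Of the clustered regions, 10 were in the narrowest and 16 in the widest of these inner bands. No chain spanned a region of 1000 bp or more, and 12 spanned a region under 100 bp.

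Neighbours in a chain resembled each other little in score. Over the 952 neighbouring pairs Spearman's rho between the scores was 0.0745, a description of pairs that share regions, libraries and a selection by position, and the median difference was 5.09 score units. Both neighbours were present in both replicates in 21.5% of pairs, neither was in 29.8%, and 1 of them was in 48.6%. Singly, 45.6% of clustered and 41.8% of all narrow regions were present in both replicates. The shares of pairs that unlinked neighbours would give were not computed. With gaps of 201 to 500 bp both neighbours were in both replicates in 19.2% of 245 pairs, and with gaps of 1501 to 2000 bp in 23.2% of 151. Pairs in which neither was present in both went from 34.7% at the shorter to 23.2% at the longer gaps.

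Presence in the replicate lists was then compared with that of isolated regions. The combined list was made from the same libraries as the replicate lists, so presence is not independent of membership and no test is given. Of the clustered regions, 784 (59.1%, exact Clopper-Pearson interval 56.4 to 61.8) were present in replicate 1, where the background over all narrow regions was 53.0%, and 1962 of the isolated regions were (51.2%, 49.6 to 52.8). The difference was 7.92 percentage points (Newcombe interval 4.82 to 11.0), and clustered regions had the higher share on 6 of 6 chromosomes. Presence in replicate 2 was 65.0% of clustered (862 regions, 62.4 to 67.6) and 65.8% of isolated regions (2520 regions, 64.2 to 67.3) against a background of 66.0%, a difference of −0.754 points whose interval, −3.76 to 2.19, included 0. The excess of clustered regions was thus seen in replicate 1 and was not detectable in replicate 2; the difference between the replicates was not tested.

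In both lists together 604 clustered regions (45.6%, 42.8 to 48.3) were present, against 1544 isolated ones (40.3%, 38.7 to 41.9) and a background of 41.8%, a difference of 5.26 points (2.17 to 8.36). Regions in pairs lay between, at 42.4%. Regions found in replicate 2 alone made up 19.5% of the clustered and 25.5% of the isolated class, a difference of −6.01 points (−8.49 to −3.41), and those found in replicate 1 alone 13.6% and 10.9%, a difference of 2.67 points (0.647 to 4.83). Of the paired regions, 24.8% were in replicate 2 alone and 9.83% in replicate 1 alone. A background over all narrow regions was not computed for presence in 1 replicate alone. Regions in neither list were 284 of the clustered (21.4%, 19.2 to 23.7) and 894 of the isolated ones (23.3%, 22.0 to 24.7), near the background of 22.9%.

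Clustered regions had lower q-values, and presence in the replicates followed the q-value. Their median combined q was 1.02e-06, against 2.43e-06 for paired and 6.84e-06 for isolated regions. All narrow regions were divided by combined q into 4 groups of equal size, numbered from the strongest. Group 1, with q up to 4.78e-11, held 29.0% of the clustered and 23.4% of the isolated regions. In group 1, 97.1% of clustered and 96.8% of isolated regions were present in both replicates. In group 2 the shares were 57.2% and 61.5%, in group 3 they were 11.4% and 9.78%, and in group 4 they were 0.709% and 0.0980%. The intervals of the classes overlapped in each of the 4 groups.

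When isolated regions were weighted to the q-values of the clustered ones in 20 bins of rank, 46.0% of them were present in both replicates, and the difference changed sign, to −0.464 points. After this weighting the higher share of clustered regions in both lists was not seen. The weighting was added after the data were seen, and its values have no interval. The combined q was made from the same libraries as the replicate lists, and the part of q in the difference was not tested. By replicate the weighted differences were 2.60 points for replicate 1 and −5.02 points for replicate 2. In replicate 2 clustered regions had the lower share in groups 2 to 4: 82.6% of clustered (78.1 to 86.5) and 86.8% of isolated regions (84.4 to 88.9) were present in group 2, 47.7% (42.2 to 53.3) and 55.7% (52.5 to 58.9) in group 3, and 16.7% (12.5 to 21.5) and 26.5% (23.8 to 29.3) in group 4. The intervals overlapped in groups 2 and 3 and did not in group 4. In replicate 1 group 3 went the other way, with 41.5% of clustered (36.1 to 47.1) and 31.7% of isolated regions (28.8 to 34.8), and group 4 differed little, with 10.6% and 8.63%.

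**Figure D3:**
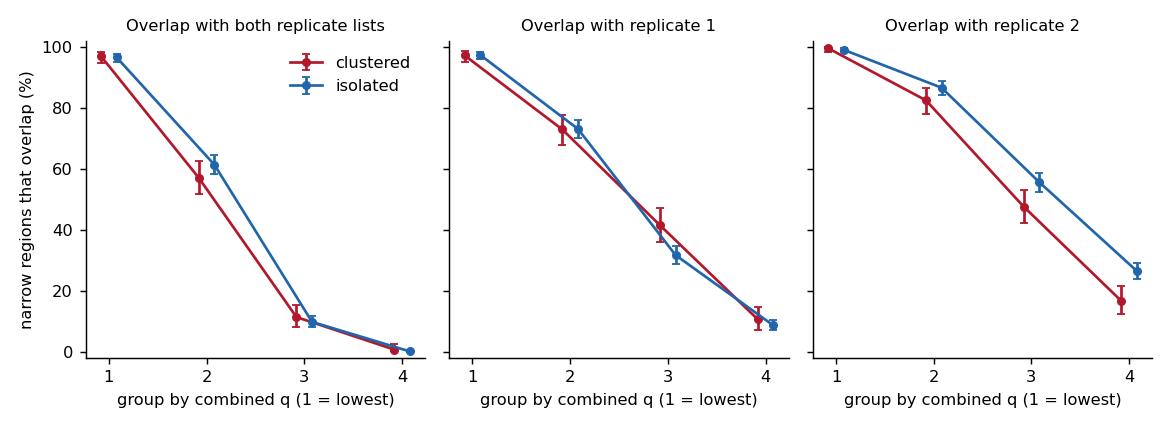
Share of clustered (red) and isolated (blue) narrow regions that overlapped both replicate lists, replicate 1 or replicate 2, in percent, by group of combined q with 1 the lowest; bars are exact 95% intervals of counting error. For both lists the classes follow each other from 97.1% and 96.8% down to 0.709% and 0.0980%, whereas for replicate 2 clustered regions lie below isolated ones in groups 2 to 4 (16.7% and 26.5% in group 4).

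Counted by chain, presence was mixed. Of all clustered regions 45.6% were in both replicates and 21.4% in neither, against 41.8% and 22.9% of all narrow regions. The numbers of chains that members without any link would give at these shares were not computed, so the counts are a description. In 28 of 374 chains (7.49%) every member was present in both replicates, in 50 (13.4%) no member was, and in 296 (79.1%) some members were. At least 1 member was in both lists in 324 chains (86.6%) and at least 1 was in neither in 205 chains. In 3 chains every member was in neither list. Every member was present in replicate 1 in 74 chains and in replicate 2 in 91. The span held 3 or more regions of replicate 1 in 126 chains (33.7%), of replicate 2 in 160 (42.8%) and of each in 79 (21.1%). For most chains, therefore, at least 1 replicate list did not itself hold 3 regions in the span.

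Presence followed the order of strength within a chain. The strongest member was in both replicates in 83.2% of chains (79.0 to 86.8), the second strongest in 51.1% and the weakest in 10.4% (7.52 to 14.0). The weakest member was in neither list in 49.2% of chains and the strongest in 1.87%. These places were set by the combined q, which was made from the same libraries, so the order is a description. Members were rarely joined in a replicate list: 7 replicate 1 regions overlapped more than 1 member, 14 members in all (1.06%), and 1 replicate 2 region overlapped 2.

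The rule was also applied to each replicate list, and presence was read in the other list, which had no part in choosing the regions; the lists may still share a control input. Replicate 1 held 422 clustered regions in 125 chains, of which 320 (75.8%, 71.5 to 79.8) were found in replicate 2. Isolated replicate 1 regions were found in 2093 of 2638 cases (79.3%, 77.7 to 80.9), and the background over all narrow replicate 1 regions was 79.1%. The difference was −3.51 points with an interval of −8.07 to 0.644, which includes 0, and clustered regions had the higher share on 1 of 6 chromosomes, chromosome I. Without chromosome I the difference was −6.00 points (−11.3 to −1.16). Replicate 2 held 583 clustered regions in 175 chains, of which 396 (67.9%, 64.0 to 71.7) were found in replicate 1, against 1920 of 3135 isolated ones (61.2%, 59.5 to 63.0) and a background of 62.6%. This difference was 6.68 points (2.43 to 10.7), and the clustered share was the higher one on 5 of 6 chromosomes.

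The direction therefore depended on which list was chained. With the isolated regions weighted by q within each list the differences were −6.74 points from replicate 1 to replicate 2 and 2.77 points in the other direction. Each replicate list was divided by its own q into 4 groups in the same way. In group 3 of replicate 1, 56.3% of 103 clustered regions (46.2 to 66.1) and 74.2% of 670 isolated ones (70.7 to 77.5) were found in replicate 2, and in group 4, 50.6% (39.6 to 61.5) and 57.8% (54.1 to 61.5). In group 3 of replicate 2, 52.0% of 127 clustered regions (42.9 to 60.9) and 49.1% of 804 isolated ones (45.6 to 52.6) were found in replicate 1. In group 4 of replicate 2, 38.6% of 132 clustered regions (30.3 to 47.5) and 28.8% of 812 isolated ones (25.7 to 32.1) were found there. In group 2 the shares were 87.4% and 90.5% from replicate 1 and 77.0% and 74.0% from replicate 2. Apart from group 3 of replicate 1, the intervals of the classes overlapped in every group of both lists. Intervals of the differences within groups were not computed. In group 1, 94.2% or more of both classes were found in the other list, in both directions.

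Chains of the replicate lists mostly lay where the combined list had one, but many combined chains had no counterpart. Of the 125 replicate 1 chains, 100 (80%) met a combined chain, and of the 175 replicate 2 chains, 133 (76%) did. Seen from the 374 combined chains, these were 26.7% and 35.6%. A chain of each replicate met the combined chain in 53 cases (14.2%), and a chain of neither did in 194 (51.9%). Fewer narrow regions were listed in each replicate, 3816 and 4848, and the share of them that was clustered was 11.1% in replicate 1 and 12.0% in replicate 2, against 19.4% in the combined list.

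Clustered regions were wider than isolated ones. Their median width was 394 bp (380 to 407) with quartiles of 287 and 540 bp, against 380.5 bp for paired and 349 bp (344 to 355) for isolated regions. The rule bounded both classes at the same widths. It measured gaps from the end of 1 region to the start of the next, so width also entered the chaining. The widths are therefore a description, and the part of the rule in the difference was not tested. The median was higher for clustered regions on 6 of 6 chromosomes. It was also higher in each group of combined q, with 546 against 474 bp in group 1, 404 against 373 bp in group 2, 325 against 310 bp in group 3 and 274 against 264.5 bp in group 4. In the replicate lists clustered regions had median widths of 446 bp (replicate 1) and 381 bp (replicate 2), and isolated regions 357 and 345 bp.

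Regions outside the width range lay near few regions of either class. The intervals of the classes overlapped, which does not show that the shares are alike, and no interval of the difference was computed. A region under 100 bp lay within 2000 bp of 4.30% of clustered and 3.39% of isolated regions (exact intervals 3.27 to 5.53 and 2.84 to 4.02). A region of 1000 bp or more lay within that distance of 3.17% (2.29 to 4.26) and 4.54% (3.90 to 5.25).

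Chromosome I held the most chains. It had 100 of the 374, or 6.65 per Mb, against 3.84 on X, 3.35 on V, 3.21 on II, 2.98 on III and 2.63 on IV. It thus held 26.7% of the chains and 27.1% of the clustered regions on 15.0% of the length, measured up to the last listed region, and 18.3% of the isolated regions. Of its narrow regions 25.1% (22.9 to 27.4) were clustered, followed by V at 20.8% (18.6 to 23.3), X at 18.9% (16.7 to 21.2), II at 17.2% (14.8 to 19.7), IV at 16.5% (14.4 to 18.9) and III at 14.9% (12.7 to 17.3). The intervals of neighbours in this order overlapped from V downwards, whereas that of I overlapped only that of V.

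The density of narrow regions was 95.4 per Mb on chromosome I, 69.7 on X, 68.3 on III, 62.6 on II, 61.6 on IV and 57.6 on V. These values are means over whole chromosomes, and density also varied along them. The part of density in the share that was clustered was not tested. Chromosome I also had the largest share of regions in neither replicate list, 28.9% of its clustered and 32.5% of its isolated regions. In the replicate lists the order of chromosomes differed. In replicate 1 the clustered share was 15.4% on V, 12.9% on I and 7.79% on X, and in replicate 2 it was 15.6% on I, 13.0% on X and 10.9% on V. Chromosome V was thus highest in replicate 1 and below I, II and X in replicate 2, and X was lowest in replicate 1 and next to I in replicate 2. Most of these ranks lay within counting error. In replicate 1 the interval of V (12.7 to 18.3) overlapped that of I (10.5 to 15.6). That of X (5.91 to 10.0) overlapped that of IV (7.20 to 12.0) but not that of V. In replicate 2 the interval of V (8.90 to 13.2) overlapped those of II (9.56 to 14.5) and X (10.9 to 15.4).

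**Figure D4:**
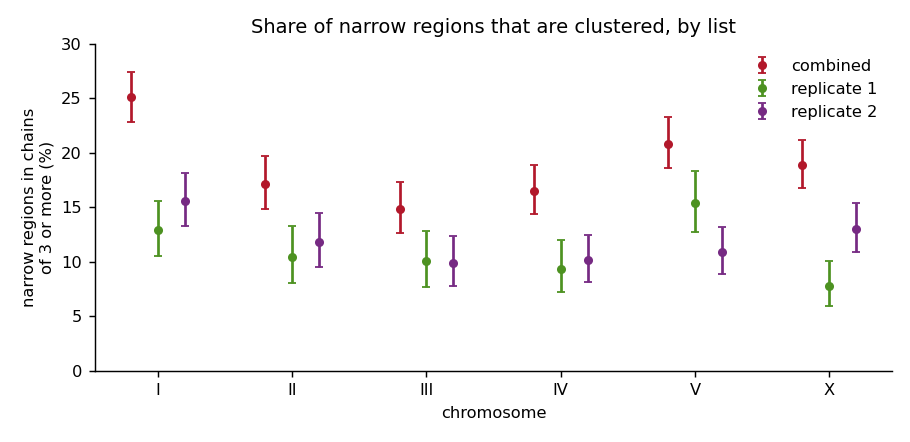
Share of narrow regions that were in chains of 3 or more, in percent, by chromosome and list; points are shares and bars exact 95% intervals of counting error. The combined share is above both replicate shares on each chromosome and highest on I (25.1%), and the replicates differ most on X (7.79% and 13.0%) and V (15.4% and 10.9%).

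Presence of clustered regions in both replicates ranged from 42.1% on X to 55.6% on IV. Chromosome IV, with the fewest chains per Mb, also had the widest gap to isolated regions, 55.6% against 40.6%, while on X the shares were 42.1% and 40.7% and on II 43.9% and 41.8%.

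Along the chromosomes clustered regions leaned towards the middle. Each chromosome was divided into 3 parts of equal length, and the middle part held 650 of them (49.0%, 46.3 to 51.7), 42.3% of paired and 39.6% (38.0 to 41.1) of isolated regions, a difference between clustered and isolated of 9.46 points (6.35 to 12.6). Both classes were defined by these same positions, so the difference and its interval are a description. The part of the density of narrow regions in it was not tested. The clustered share was higher on 6 of 6 chromosomes. It ranged from 41.6% on X, where 32.9% of isolated regions were in the middle, to 59.4% on V, where 41.9% were. Chromosome II had the smallest difference, with 47.6% and 44.9%. In the replicate lists 50.2% (replicate 1) and 48.0% (replicate 2) of clustered regions were in the middle part, against 41.7% and 40.4% of isolated ones.

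With each chromosome divided into 10 parts of equal length, clustered regions were most frequent in part 5, with 15.6%, and least in part 2, with 4.45%. Isolated regions varied less, from 7.93% in part 2 to 12.3% in part 5. In part 10 the classes were close, at 7.99% and 8.53%. The decline was abrupt for clustered regions on both sides. Towards the right end they went from 14.3% in part 7 to 7.62% in part 8, where isolated regions went from 11.5% to 11.1%. Towards the left end they went from 11.0% in part 3 to 4.45% in part 2, where isolated regions went from 9.26% to 7.93%.

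**Figure D5:**
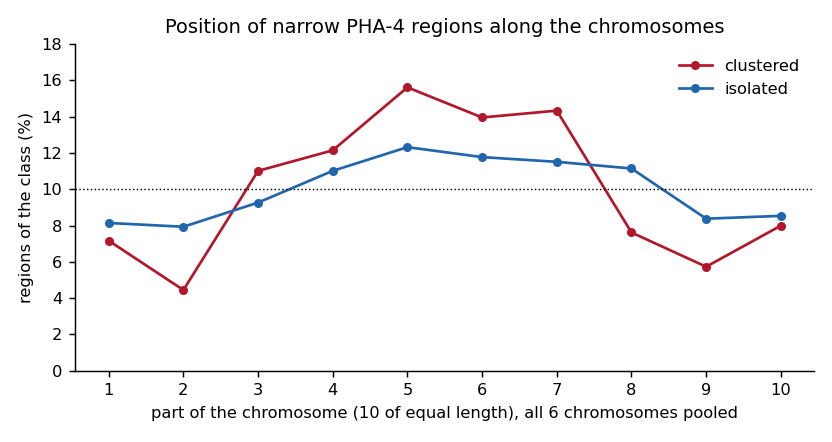
Share of clustered (red) and isolated (blue) narrow regions in each of 10 equal parts of the chromosomes, in percent of the class, with all 6 chromosomes pooled; the dotted line marks an even spread and no error is drawn. Clustered regions peak at 15.6% in part 5 and fall to 4.45% in part 2 and 5.73% in part 9, a wider range than that of isolated regions, 7.93% to 12.3%.

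Narrow regions of every class were denser in the middle, with 86.2 per Mb against 59.4 in the outer parts. The clustered share of narrow regions was 22.6% in the middle and 17.0% outside it in the combined list, 12.8% and 9.70% in replicate 1, and 13.5% and 10.9% in replicate 2. Chromosome IV was the exception in the replicate lists, with 3.73% in the middle and 13.7% outside in replicate 1 and 6.61% and 12.9% in replicate 2, although its combined shares were 18.6% and 15.0%. Chains were spread over 91 of 103 windows of 1 Mb. The richest was chrI:7000001-8000000 with 15 chains and 49 isolated regions, followed by chrI:9000001-10000000 with 11 chains and chrII:5000001-6000000 with 10.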

How the data were processed

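ChIP-seq for tagged PHA-4 was carried out on 3 immunoprecipitations and 2 inputs. The authors called regions with PeakSeq and deposited them for replicate 1, replicate 2 and both combined, each with a start, an end and a q-value; per the file headers the coordinates are on WormBase WS190. Not given in the sources used here are the aligner, the PeakSeq settings, the control behind each list and the way of combining replicates; a shared control or joint scoring could raise overlap between lists. The number of regions in a list depends on a depth that is unknown.

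Members and comparisons were chosen with earlier results of these data known. Chains were built from starts and ends (1-based, inclusive), and overlap meant at least 1 bp; overlap counts matched those of bedtools 2.31.1. Each chromosome was taken to end at its last listed base, for a total of 100177638 bp. Shares have exact Clopper-Pearson intervals, differences Newcombe intervals and medians order-statistic intervals. No p-value is given: the members were selected on positions and widths, and regions are not replicates. Chains described singly were the 10 with the most members (ties to the lowest q), the 5 with the lowest q, the widest and the one with the smallest median gap. The code was tested on simulated lists with known chains and overlaps. Alternatives changed the gap, chain size, widths, q limit, overlap rule, chromosomes and list; the weighting by q in 20 bins, the shares per replicate list and the omission of a stretch of chromosome V were added after the data were seen. Genes and sequences were not analysed here. The tools were scipy 1.17.1, pandas 2.3.3, numpy 2.4.6 and matplotlib 3.10.9 under Python 3.11.15.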

Additional observations from a re-analysis of the deposited data

Results flagged for a closer look

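Regions chained in 1 replicate list and looked up in the other differed from isolated regions in opposite directions. Clustered replicate 1 regions were found in replicate 2 less often than isolated ones, by −3.51 percentage points, with an interval that includes 0; without chromosome I it was −6.00 points (−11.3 to −1.16) and with gaps up to 5000 bp −3.67 (−6.94 to −0.500), with intervals that exclude 0. Clustered replicate 2 regions were found in replicate 1 more often, by 6.68 points. The difference between these values was not tested.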

How the results depend on the processing

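Alternative values were set against the 95% interval of the reported value for differences of shares, and against a factor of 1.5 for counts. For the difference in median width the limits were 25 to 63 bp. They came from subtracting opposite limits of the 2 median intervals and are wider than a 95% interval. Of 73 alternative values, 51 lay within these limits and 21 lay outside them. The remaining 1, whose reported interval excluded 0, changed sign. That value was the share in both replicates with isolated regions weighted by q, −0.464 points in place of 5.26, an alternative added after the data were seen; it also gave 2.60 points for replicate 1 and −5.02 for replicate 2. The numbers of clustered regions and chains followed the rule: 550 and 167 with gaps up to 1000 bp, 2784 and 695 with gaps up to 5000 bp, 3014 and 1218 with chains of 2 or more, 603 and 133 with chains of 4 or more, and 823 and 239 with a q of 0.001 or lower. With 1 replicate list in place of the combined list they were 422 to 583 and 125 to 175. The difference in median width, 45 bp as reported, was 71 bp with gaps up to 1000 bp, 66 bp with chains of 4 or more, and 36 to 89 bp with 1 replicate list. With chains of 2 or more the differences were 4.04 points in replicate 1 and 5.69 in the middle part of the chromosomes, and the difference in replicate 2, −0.754 points with an interval that included 0, was 0.462 points (−1.80 to 2.72). The interval of the difference in both lists included 0 with gaps up to 1000 bp (3.52 points, −0.806 to 7.91) and with a q of 0.001 or lower (2.36, −1.45 to 6.14). It was 3.26 points (0.216 to 6.33) with a reciprocal overlap of 50%, 3.47 points (1.12 to 5.82) with chains of 2 or more, and 5.29 points without chromosome I. From replicate 1 to replicate 2 the difference of −3.51 points, whose interval included 0, was −6.00 points (−11.3 to −1.16) without chromosome I, −3.67 (−6.94 to −0.500) with gaps up to 5000 bp and −6.74 weighted by q. From replicate 2 to replicate 1 the difference of 6.68 points was 5.95 (1.07 to 10.6), 8.78 (5.53 to 12.0) and 2.77 under the same settings. Without a stretch of chromosome V, 20740660 to 20774524, where the combined list used here held 0 regions, these differences were −3.50 and 6.68 points. No paired analysis was possible because the result comes from no test. The lists hold no read counts, so depth is unknown and its part in the absence of weak regions from a list was not tested.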
